A study of Homo sapiens with 50 samples.

Results

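RET encodes a receptor tyrosine kinase, and 15 of the 3443 short hairpin RNAs measured in this fibroblast screen named RET and no other gene. The 15 hairpins were taken by exact match of the gene name. RET itself was chosen on its values in these same columns, for loss of its hairpins soon after the start. The values below are therefore a description of that loss and carry no test. The screen was run in IMR90, a line of fibroblasts of the human lung whose divisions come to an end with serial passage (replicative senescence), here kept at 3% oxygen. Lentiviruses, each carrying 1 hairpin designed to lower a gene's expression, came from 5 initial pools combined in pairs, with 1 of the 10 paired pools on each plate and a multiplicity of infection of 0.3. Genomic DNA was taken at population doubling 40 (PD40), the proliferating control, then at PD45, PD50 and PD55, and at PD60, when the cells were senescent. All groups were infected cells. A hairpin was present only in the plates that carried its initial pool, whereas every value here is relative to a column pooled over all 10 plates, so RET hairpins are also set against hairpins grown in other plates.

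RET sits in the plasma membrane and is activated when ligands of the glial cell line-derived neurotrophic factor (GDNF) family, held by GFRα co-receptors, bring 2 receptor molecules together. The active kinase recruits adaptor proteins and signals through the PI3 kinase and AKT route, through RAS and the MAP kinases, and on to transcription factors. RET is best known for its part in the development of the enteric nervous system and kidney, and as an oncogene in thyroid cancer. Its RNA and protein levels in these fibroblasts, and how far each hairpin lowered them, were not measured here.

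Each population doubling had 1 column of tags pooled over its 10 plates, with 8270745 to 11505688 tags per column. There was no replicate and the spread between cultures is unknown. Counts are given as CPM, the count scaled to a column total of 1000000, and intervals are exact 95% intervals that cover counting error only, since PCR copies could not be told from separate molecules. A fold change is log2 of CPM plus 1 at a later doubling over the same at PD40. All 15 RET hairpins had at least 10 tags at PD40 and so met the count minimum in every comparison with PD40. The library as a whole also thinned: the median log2 fold change over all 3443 hairpins was -1.62 at PD45, fell to -3.44 and -4.92 at the next doublings sampled, and was -5.85 at PD60. The RET values are therefore set beside that median.

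Hairpins TRCN0000000405 and TRCN0000010252 had matching counts in all 5 columns. They had 5462 and 5567 tags at PD40, 2620 and 2571 at PD45, 611 and 575 at PD50, 559 and 576 at PD55, and 1656 and 1697 at PD60. The pair was known for its matching counts when RET was chosen, so the match is a description. As a tolerance for matching, counts over the 5 columns were taken as equal when a chi-square statistic on them, with each tag treated as independent, had a tail probability above 0.05. Among pairs of hairpins against the same gene with at least 1000 tags each at PD40, 10 of 2314 met this, in 9 genes, and the RET pair was the 1 of 66 RET pairs that did. Such pairs were thus also found outside RET. Results are given with all 15 hairpins and, where it matters, with the pair counted once (14) or left out (13).

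RET hairpins were lost early. Of the 15, 14 were over 2-fold lower at PD45 than at PD40, when 63.2% of all hairpins tested were, and 14 were at PD50, when 81.9% were. By PD55 all 15 were over 2-fold lower, and they were so again at PD60, against 91.7% and 95.3% of all hairpins. Since RET was chosen on these columns, nothing is read from the counts themselves. The median over RET hairpins was -2.80 at PD45 (range -4.08 to 0.26), -4.83 at PD50 (-7.55 to -0.75), -6.81 at PD55 (-8.54 to -3.61) and -7.60 at PD60 (-9.68 to -1.65). These medians lay 1.18, 1.39, 1.89 and 1.75 log2 units under those of all hairpins, in time order. With the matching pair counted once the medians were -2.88, -4.89, -7.09 and -7.68.

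Summed over the 15 hairpins, RET held 1.03% of all tags at PD40 (interval 1.02 to 1.04). The share was 0.221% at PD45 (0.218 to 0.224), 0.0461% at PD50 (0.0446 to 0.0475), 0.0143% at PD55 (0.0136 to 0.0150) and 0.0417% at PD60 (0.0403 to 0.0431). The sum was thus 4.67-fold, 22.4-fold, 72.0-fold and 24.7-fold lower at these later doublings. The higher sum at PD60 than at PD55 lay in the matching pair, which held 12.4% of RET tags at PD40, 68.9% at PD55 and 97.2% at PD60. Without the pair the sum went from 77887 tags at PD40 to 14190, 2720, 512 and 96, and was 778-fold lower at PD60 (637 to 960).

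RET was covered by hairpins of 3 stretches of the hairpin catalogue, and the hairpins of these stretches started at different levels. In the stretch numbered below 9000, which held 5 RET hairpins, TRCN0000000402 had 27.5 CPM at PD40, 0.683 at PD45 and no tags from PD50 on. TRCN0000000403 had 21.9, 1.82, 0.118, 0.348 and 0 CPM at the 5 doublings. TRCN0000000406 had 33.6, 3.42, 0.118, 0.0869 and 0 CPM. These 3 hairpins began with 189 to 290 tags, the lowest of the RET set, and had 0 or 1 tag by PD50.

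A start that low limits how large a loss can be seen. With 0 tags at PD60 counted as a floor of 3 tags per column, TRCN0000000402 was 75.7-fold lower, TRCN0000000403 60.4-fold and TRCN0000000406 92.7-fold. The exact lower bounds, which also cover counting error at PD40, were 61.1-fold, 48.6-fold and 74.9-fold. TRCN0000000404 started at 193 CPM and had 12.6, 1.18, 0.174 and 0 CPM afterwards. It was 532-fold lower at PD60 with the same floor, with an exact lower bound of 433-fold. TRCN0000000405, of the matching pair, had 633, 298, 72.1, 48.6 and 200 CPM and was the one RET hairpin of this stretch that still had more than 10 tags at PD55.

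The stretch numbered 9000 to 11000 held 7 RET hairpins, with starts of 3470 to 24333 tags. TRCN0000009864 started at 2821 CPM, rank 36 of the library, and had 242, 14.0, 6.61 and 5.32 CPM afterwards. It was 11.6-fold lower at PD45 (11.1 to 12.2) and 201-fold lower at PD50 (168 to 243). On the log2 scale 0.116% of all hairpins were lower than it at PD50. With 1 CPM added, the lowest log2 fold change a hairpin can reach is set by its start. A hairpin with a low start could not fall that far even at 0 tags, so this percentage also depends on starting level.

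TRCN0000010248 started at 2513 CPM, rank 47, and had 652, 113, 12.6 and 2.06 CPM afterwards. Its loss was slower at first, 3.85-fold at PD45 (3.74 to 3.97), but at PD60 it was 1223-fold lower (764 to 2099). At PD60 0.174% of all hairpins were lower on the log2 scale, a percentage that likewise depends on starting level. TRCN0000010423 had 1285, 184, 50.5, 5.30 and 1.21 CPM and ended 1063-fold lower (578 to 2217). The counting intervals of these last 2 hairpins overlap at PD60, so their order there is not settled.

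TRCN0000009863 had 637, 78.7, 17.5, 2.78 and 0.725 CPM. TRCN0000010238 had 531, 67.2, 4.72, 1.04 and 0.725 CPM. TRCN0000010239 had 402, 85.1, 7.78, 0.174 and 0.725 CPM. Each of these 3 hairpins ended with 6 tags at PD60, 878-fold (403 to 2394), 731-fold (336 to 1994) and 554-fold (254 to 1512) lower than at PD40. TRCN0000010252, the matching hairpin, began near them at 645 CPM and had 293, 67.8, 50.1 and 205 CPM afterwards. It was 3.15-fold lower at PD60 (2.98 to 3.32), and TRCN0000000405 3.16-fold (2.99 to 3.34), so both lay apart from hairpins with a like start.

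The stretch numbered 30000 to 45000 held the remaining 3. TRCN0000040025 had 243, 52.7, 9.55, 2.00 and 0.121 CPM. TRCN0000040027 had 150, 30.6, 1.89, 0.348 and 0 CPM. It was 415-fold lower at PD60 with the floor of 3 tags, with an exact lower bound of 337-fold. TRCN0000040026 was the exception of the set: it had 171, 204, 101, 13.0 and 0.725 CPM.

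TRCN0000040026 was the 1 RET hairpin that was not lower at PD45, with a ratio of 1.20 to PD40 (1.12 to 1.28), and at PD50 it was 1.69-fold lower (1.56 to 1.85). At PD45 86.2% of all hairpins were lower than it, and at PD60 31.5% were, when it had 6 tags and was 236-fold lower (108 to 643). The losses of the RET set thus differed in size and timing between hairpins, from 40.2-fold lower at PD45 (18.2 to 111, TRCN0000000402) to no loss at that time. TRCN0000040024, which the table gives to RET and to NCOA4 together, lay outside the set. It had 140, 46.7, 16.7, 2.69 and 0 CPM, and its log2 fold changes of -1.56 at PD45 and -2.99 at PD50 were above the RET medians. NCOA4 encodes a nuclear receptor coactivator and autophagy receptor for ferritin, and is known as a partner of RET in gene fusions of thyroid cancer.

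The non-targeting hairpin, built to match no human gene, had 529, 202, 78.9, 11.6 and 4.72 CPM, log2 fold changes of -1.38, -2.73, -5.40 and -6.53. At PD45 12 of 15 RET hairpins were lower than it, and at PD50 14 of 15, against 54.9% and 60.4% of all hairpins. At PD55 9 of 15 were lower and at PD60 10 of 15, against 38.4% and 34.1% of all hairpins. It is a single hairpin, so its own spread is unknown. At PD55 and PD60 these counts and shares also depend on starting level. A hairpin with a low start, such as TRCN0000000402 at -4.83 with 0 tags, could not fall below the non-targeting hairpin.

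The pace of RET loss was set beside that of the library step by step, with a count minimum of 10 tags in either column of the step. From PD40 to PD45 the RET median was -2.80 against -1.63 for all hairpins tested, and 12 of 15 RET hairpins lay below the latter. From PD45 to PD50 it was -2.23 against -1.60, with 12 of 14 below; all 14 were over 2-fold lower, against 71.4% of all hairpins. From PD50 to PD55 it was -1.65 against -1.91, with 5 of 12 below; 8 of the 12 were over 2-fold lower, against 80.8%. From PD55 to PD60 it was -1.13 against -1.82, with 2 of 9 below; 5 of the 9 were over 2-fold lower, against 73.2%. On this scale the RET median therefore lay below that of all hairpins in the first 2 steps and above it in the last 2. With 1 CPM added, a hairpin that enters a step with few CPM cannot show a large fall. TRCN0000010239 went from 7.78 CPM at PD50 to 0.174 at PD55, a ratio of 0.0223 (0.00265 to 0.0839) with nothing added. How much of the change between steps lies in this limit was not tested. The later steps hold only RET hairpins that still had at least 10 tags in either column of the step, and the difference between steps was not tested.

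In the last step 2 of the 9 RET hairpins were over 2-fold higher, against 5.40% of all hairpins, and these were the 2 of the matching pair, which count as 1 hairpin where the pair is counted once. TRCN0000000405 was 4.12 times its PD55 level (3.74 to 4.54) and TRCN0000010252 4.10 times (3.73 to 4.51). At PD60 93.3% of all hairpins were lower than either on the log2 fold change scale. The other RET hairpins ended PD60 with at most 44 tags. Of the 15, 5 had 0 tags, as did 1519 of all 3443 hairpins.

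RET hairpins began more abundant than most, with a median of 3470 tags at PD40 against 1019 over all hairpins, and 12 of 15 above the latter. At PD45 the median loss over the other hairpins was smaller in each higher quintile of starting level. In the highest quintile of PD40 abundance the other hairpins had a median log2 fold change of -0.40, -1.46, -3.57 and -6.23 from PD45 to PD60. The 8 RET hairpins in that quintile had medians of -2.51, -4.88, -7.60 and -8.40, and all 8 were below the median of the others at PD45, PD50 and PD55, and 6 of 8 at PD60. The hairpins not below at PD60 were those of the matching pair, which these counts take as separate hairpins. In the lowest quintile the other hairpins had -2.81 at PD45 and the 3 RET hairpins -3.02. Over all quintiles 14 of 15 RET hairpins were below the median of the others in their own quintile at PD45 and at PD50, and 13 and 12 were at the last 2 doublings. The distance between RET and other hairpins was thus wider at PD45 in the highest quintile than in the lowest.

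RET medians at PD45 and PD50 were also below those of other genes within each stretch of the catalogue. Among hairpins numbered 9000 to 11000 the RET median was -2.80 at PD45 and -5.11 at PD50, against -1.52 and -2.75 for 104 hairpins of other genes, with 6 and 7 of 7 RET hairpins below. Below 9000 it was -3.02 and -4.83 against -2.09 and -3.67 for 463 hairpins, with 4 of 5 below at each time. From 30000 to 45000 it was -2.18 and -4.53 against -1.30 and -3.15 for 322 hairpins, with 2 of 3 below at each time. At PD60 the stretches parted: 6 of 7, 1 of 5 and 3 of 3 RET hairpins were below the medians of other genes, in the same order. The 5 below 9000 include the 3 with the lowest starts.

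Among the 24 genes with at least 8 hairpins, a limit set after the values were seen, RET ranked 3 from the lowest in mean log2 fold change at PD45 (-2.45, SD over hairpins 1.14). It was the lowest at PD50 (-4.79, SD 1.62) and at PD55 (-6.20, SD 1.85), and ranked 3 again at PD60 (-6.62, SD 2.54). At PD45 SMARCB1, a core subunit of the SWI/SNF remodeller, had -3.24 and EZH2, the H3K27 methyltransferase, had -3.09. At PD50 EZH2 was next to RET at -4.30 (8 hairpins), and at PD60 SMAD4, a transducer of TGF-β signals, was lowest at -7.06. The distance between RET and EZH2 at PD50 was smaller than the SD over RET hairpins. Among the 568 genes with at least 5 hairpins RET ranked 92, 20, 18 and 69 from the lowest, from PD45 to PD60. The SD over RET hairpins at PD45 was below the median SD of 1.53 over these genes, and at PD60 it was above the median of 1.61. These ranks and SDs count both hairpins of the matching pair. At PD60 the RET mean was -6.98 (SD 2.22) with the pair counted once. Without the pair it was -7.39 (SD 1.67), below the -7.06 of SMAD4, so the rank at PD60 depends on the pair.

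The genes whose 4 mean log2 fold changes lay closest to those of RET, by Euclidean distance among 567 other genes with at least 5 hairpins, were BMI1, ARID1A, HIST1H2BB, MLL2 and CTCFL. BMI1, a subunit of the Polycomb complex PRC1, lay at a distance of 0.334 with means of -2.62, -4.64, -6.31 and -6.85. ARID1A, a DNA-binding subunit of SWI/SNF, lay at 0.359, and HIST1H2BB, a histone H2B gene, at 0.475. MLL2, a name that has been used for more than 1 H3K4 methyltransferase, lay at 0.540, and CTCFL, the germline paralog of CTCF, at 0.557. Each had 5 hairpins. All profiles share the same columns, and a distance over 4 points is a description only. The RET means used here include both hairpins of the matching pair.

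The other genes of RET signalling, taken from a list drawn up for this pathway, are given by branch, as counts and medians at PD45 and PD50. Their shares, and those of all hairpins beside them, have no count minimum. None of 8 ligand and co-receptor genes and none of 16 other receptor tyrosine kinases on the list was analysed here. Of 15 adaptors, DOK4, a docking protein that binds active RET, had 4 hairpins, with medians of -0.80 at PD45 and -2.53 at PD50. Of the 4, 2 were over 2-fold lower at each time, against 62.8% and 81.4% of all hairpins.

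In the PI3 kinase branch, 13 genes had 113 hairpins, with medians of -1.50 at PD45 and -3.36 at PD50. Of the 113, 73 (64.6%) and 93 (82.3%) were over 2-fold lower, close to the 62.8% and 81.4% of all hairpins. PIK3CG, the catalytic subunit p110γ, had the lowest median at PD50, -5.58, and PIK3R3, a regulatory subunit, -5.01. Both were below the RET median at that time. PIK3CD, the catalytic subunit p110δ, had the highest, -2.26. Among the RAS and MAP kinase genes 2 had hairpins, 16 in number, with medians of -1.33 at PD45 and -3.66 at PD50. Of the 16, 11 (68.75%) and 13 (81.25%) were over 2-fold lower, near the shares of all hairpins. BRAF, a kinase that activates MEK, had medians of -2.79 at PD45 and -4.16 at PD50. All 5 of its 5 hairpins were over 2-fold lower at both times, from a median start of 322 tags. That start lies in the lowest quintile of starting level, where 87.8% and 92.4% of the other hairpins were over 2-fold lower. RPS6KA1, the ribosomal S6 kinase RSK1, had -1.15 and -3.42, with 6 and 8 of 11 lower.

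Of the nuclear targets, 5 genes had 27 hairpins with medians of -2.69 at PD45 and -3.94 at PD50. Of the 27, 21 (77.8%) and 24 (88.9%) were over 2-fold lower, against 62.8% and 81.4% of all hairpins. JUN, a subunit of the transcription factor AP-1, had the lowest median at PD50, -4.72, with 6 of 6 lower. CREB1, a transcription factor that responds to cyclic AMP and growth factors, had -4.32 with 4 of 4 lower, and STAT3, a transcription factor downstream of cytokine and growth factor receptors, had the highest, -2.75 with 3 of 5 lower. Median starts were 792 tags for JUN and 400.5 for CREB1, below that of RET. In the quintiles of starting level that hold these starts, 83.7% (JUN) and 92.7% (CREB1) of the other hairpins were over 2-fold lower at PD50.

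Set beside kinase and signalling groups with many hairpins, RET lay lower at the early times. The 54 hairpins against 7 PI3 kinase subunits had medians of -1.46 at PD45, -3.36 at PD50 and -6.81 at PD60. The 70 against AKT, mTOR (named FRAP1 in the table) and the S6 kinases had -1.43, -3.44 and -5.62. The 56 against 11 genes of the NF-κB pathway, which controls inflammatory gene expression, had -1.52, -2.74 and -5.57. For RET these were -2.80, -4.83 and -7.60. Median starts were 2529.5, 1526.5 and 863 tags for the 3 groups, below the 3470 of RET, and the first 2 groups share genes with the pathway branches above. In share of hairpins over 2-fold lower at PD45, with no count minimum, the groups had 61.1%, 65.7% and 57.1%, RET 93.3% and all hairpins 62.8%. At PD60, when nearly all hairpins were lower, the groups had 92.6%, 88.6% and 91.1%, RET 100% and all hairpins 94.6%. These comparisons share the PD40 column and RET was chosen for its early loss, so the differences carry no test.

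The direction of single RET hairpins depends on the scale. Values above are relative to the column total. Scaling with TMM, which assumes that most hairpins keep their level, moved the median of all hairpins up by 1.20, 2.66, 3.68 and 4.03 log2 units from PD45 to PD60. On that scale 10, 12, 11 and 12 of the 15 RET hairpins were over 2-fold lower, in time order, against 34.3%, 46.4%, 54.8% and 64.4% of all hairpins tested, and the RET median stayed 0.83, 1.25, 1.41 and 0.43 log2 units under that of all hairpins. The 1 CPM was added after scaling, so these shifts and distances also depend on starting level and on hairpins with few or no tags. TRCN0000000405, TRCN0000010252 and TRCN0000040026 were then above their PD40 level at PD45 and at PD55. At PD50 TRCN0000040026 alone was, and at PD60 the matching pair was, with 5.17 as the highest log2 fold change of the set. Summed RET tags at PD60 were on that scale at a log2 fold change of 2.22 with the pair and -2.76 without it.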

How the data were processed

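Integrated hairpin DNA from 50 samples, 10 plates at each of 5 population doublings, was amplified, cut within the hairpin with XhoI and sequenced, per the labels. The deposited table held counts, whole tags per hairpin, in 1 column per doubling; Bowtie 1.0.1 is listed in the submitters' processing notes, and its settings, the build and the way plates were pooled are not stated in those sources. It listed 3443 hairpins, where the design text speaks of 3455.

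Counts were divided by column totals of 8270745 to 11505688 tags. Fold changes used a pseudocount of 1 CPM and, for calls, at least 10 tags in either column. Shares over gene lists and quintiles of starting level, and the shares of all hairpins beside the lists, had no count minimum. Ratio and share intervals are exact (Clopper-Pearson, 95%). Counts of 0 were set to a floor of 3 tags per column to give a fold value, with the exact lower bound beside it. Sums and medians were taken over rows whose gene was exactly RET. TMM factors came from edgeR 4.0.16 in R 4.3.3; other steps used Python 3.11.15, numpy 2.4.6, pandas 2.3.3 and scipy 1.17.1. The calculations were checked on simulated counts with counting error only, in which most hairpins kept their level. That check does not cover a library that thins as a whole, as this one did. No test between doublings was run, since each had 1 column and RET was picked on these values.

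The members, the gene lists and all limits were chosen with earlier results of these data known. Named were every RET hairpin, the 5 closest gene profiles, the 2 lowest and 1 highest gene medians at PD50 per pathway branch and the non-targeting hairpin; SMARCB1, EZH2 and SMAD4 were named after their values were seen. Gene names are those of the table; FRAP1 and HIST1H2BB are older names of MTOR and H2BC3 in RefSeq (GRCh38.p14). Hairpin sequences were not used here.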

Additional observations from a re-analysis of the deposited data

How the results depend on the processing

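No paired analysis was possible because the columns carry no plate number. A value was taken as moved when it left the SD over RET hairpins (medians), its counting interval (sums) or 1.5 times its main value (counts). Of 308 alternative values, 241 were the same by this rule and 1 changed direction: summed RET tags at PD60, -4.63 on the log2 scale, were 2.22 with TMM scaling. Many of these values left out 1 RET hairpin, and the counts among them could not leave the limit of 1.5 times. The number labelled the same is therefore no measure of stability. The median log2 fold change of RET hairpins with TMM scaling was -1.24, -2.03, -2.66 and -2.25 in time order, and scaled to the median hairpin -1.18, -1.39, -1.89 and -1.75. With a pseudocount of 10 CPM it was -4.32 at PD55 and -4.34 at PD60. Scaled to the median hairpin, 8 RET hairpins were over 2-fold lower at PD45 and 9 at PD55 and at PD60. The share of all hairpins over 2-fold lower was 34.3%, 46.4% and 54.8% at PD45, PD50 and PD55 with TMM scaling, and 30.6%, 32.0%, 26.4% and 26.3% scaled to the median hairpin. Summed RET tags, at -2.22, -4.48, -6.17 and -4.63, were -1.06, -1.65 and -1.22 up to PD55 with TMM scaling and -1.98, -3.76, -4.48 and -1.49 with totals that left out the 50 most abundant hairpins of PD60. With 1 hairpin of the matching pair they were -2.34, -4.62, -6.70 and -5.51. Without both, an alternative chosen after seeing the data, they were -2.48, -4.82, -7.67 and -9.60, and -1.31, -1.98, -2.71 and -2.76 with TMM scaling as well. Leaving out 1 RET hairpin at a time gave sums of -2.34 to -1.93, -4.82 to -4.07, -6.70 to -5.78 and -5.51 to -4.18, the highest each time without TRCN0000009864. It gave medians of -2.88 to -2.53, -4.89 to -4.74, -7.09 to -6.58 and -7.68 to -7.42. A 4-fold limit, other pseudocounts and count minimums kept the counts of RET hairpins within 1.5 times. Hairpins with few tags at PD40 limit the depth of loss that can be read.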
